A study of Mus musculus with 4 samples.

Results

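RUNX1 ChIP-seq in the fetal mouse ovary gave a list of 10490 peaks on chromosomes 1 to 19 and X, and 4473 of them (42.6%) lay just inside a single protein-coding gene. A peak was placed here when its midpoint was within 1 kb of annotated transcription start sites (TSSs) of exactly 1 gene, that gene coded for a protein, and the midpoint was at the nearest of these TSSs or downstream of it in the direction of transcription. They are called downstream peaks in the following. The nearest TSS was not the first annotated one in every gene, so some downstream peaks lay at an internal TSS. Peaks that met the same conditions but had their midpoint on the other side of the TSS numbered 1884 (18%) and are called upstream peaks. A further 1368 peaks lay within 1 kb of TSSs of several genes, 168 at a single noncoding gene, and 2597 (24.8%) over 1 kb from TSSs.

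The chromatin came from whole ovaries of untreated female CD1 embryos at E14.5, pooled and freed from the mesonephros. RUNX1 was precipitated with an antibody in 2 samples, and 2 samples were input chromatin without antibody. Reads of the replicates were merged before peaks were called, so each peak has 1 fold and 1 p-value, no value per replicate and no replicate error. No test between conditions could therefore be made, and the intervals given below (95%, exact binomial for shares and order statistics for medians) cover counting over peaks or genes only. Whole ovaries hold pre-granulosa cells, germ cells, interstitial cells, endothelium and blood cells, and the cells that a given peak came from cannot be told apart.

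RUNX1 is the DNA-binding subunit of a heterodimer with CBFB, binds a short core sequence, and is best known for its part in blood stem cell formation. In the fetal ovary it marks pre-granulosa cells, the supporting cells that later surround the oocyte. The stretch just downstream of a TSS holds the 5′ UTR, the first codons and the start of intron 1. It is where paused RNA polymerase II waits before elongation, and in mammals it is often part of a CpG island.

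The RUNX core was searched as TGTGGT or TGCGGT on either strand. The sequences that follow show it in downstream peaks of genes that the results turn on, namely regulators of the ovary and gonad, RUNX1 itself, some of the strongest peaks, and examples from the lists of signaling, immediate early, chromatin and proteasome genes. Each is a window of 30 bases read 5′ to 3′ on the strand of the gene, with the 6 bases of the core it was drawn around in capitals. The window of Zfpm2 also holds that gene's other core, in lower case. ACCGCA and ACCACA are the cores TGCGGT and TGTGGT on the other strand. Sequences and gene models are from NCBI RefSeq, mouse GRCm38, the assembly also called mm10.
Fst, chr13:114458769-114458798, gene on the minus strand: gggagaccgcccACCGCAaacctcggagac
Runx1, chr16:92696871-92696900, minus strand: cgctccacctgcTGCGGTtacacggtgctc
Runx1, chr16:92696677-92696706, minus strand: aactcccaccaaACCACAggatcagccaca
Zfpm2, chr15:40655487-40655516, plus strand: accgtagcgggaACCGCAgacaccgcagga
Inhbb, chr1:119421404-119421433, minus strand: cgatcagggggcTGCGGTggccctcgacgc
Msx1, chr5:37824202-37824231, minus strand: gctgctgcggccACCGCAaccgccatgggc
Lhx9, chr1:138841531-138841560, minus strand: tgctccctgccaACCACAaactccagtctc
Nr2f2, chr7:70359933-70359962, minus strand: tcgaccagcaccACCGCAaccagtgccagt
Acvr2b, chr9:119402742-119402771, plus strand: cgagctcgcccgTGCGGTtcctctgcgcga
Egr2, chr10:67537338-67537367, plus strand: ttttcttttgctTGCGGTtttgagctgcca
Tead2, chr7:45216752-45216781, plus strand: cccgcctgattcTGTGGTtactttctggtc
Slc35a1, chr4:34687415-34687444, minus strand: tcgaccggaagcTGCGGTtttccgagcccc
Zfp623, chr15:75940935-75940964, plus strand: gtcctccggctgACCGCAggaatctggccc
Psmd6, chr14:14120802-14120831, minus strand: gcatcgcgcagcTGCGGTttctgcttagcc
Kdm5c, chrX:152233198-152233227, plus strand: gatctggtttgtTGTGGTgaggtacagagg

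Whole peaks are shown for 3 downstream peaks that lie in intron 1 with every base. They were picked after their values were seen. Zfp2 and Rras2 had the strongest of such peaks with a core, and Macroh2a1 the strongest without one. This search left out 1 autosome. On the other chromosomes there were 475 such peaks, of which 153 held a core. Zfp2, which codes for a zinc finger protein, had its peak 297 bp from the TSS. Its fold, the enrichment over background that the authors' peak caller gave, was 27.31. Whether the background of this value is the input or the local signal is not stated with the list, and this holds for every fold given here. Rras2, a small GTPase of the RAS family, had its peak at 765 bp with a fold of 26.29. Macroh2a1, which codes for the histone variant macroH2A1, had its peak at 462 bp with a fold of 62.94 and no core. All are on the strand of the gene, with cores in capitals.
Zfp2, chr11:50915729-50916028, minus strand: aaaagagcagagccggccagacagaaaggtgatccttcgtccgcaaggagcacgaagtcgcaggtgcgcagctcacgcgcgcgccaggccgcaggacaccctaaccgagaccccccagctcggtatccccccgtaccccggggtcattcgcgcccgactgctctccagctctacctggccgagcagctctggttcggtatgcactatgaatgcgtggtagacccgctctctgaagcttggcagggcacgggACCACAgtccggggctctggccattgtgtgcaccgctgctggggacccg
Rras2, chr7:114116866-114117165, minus strand: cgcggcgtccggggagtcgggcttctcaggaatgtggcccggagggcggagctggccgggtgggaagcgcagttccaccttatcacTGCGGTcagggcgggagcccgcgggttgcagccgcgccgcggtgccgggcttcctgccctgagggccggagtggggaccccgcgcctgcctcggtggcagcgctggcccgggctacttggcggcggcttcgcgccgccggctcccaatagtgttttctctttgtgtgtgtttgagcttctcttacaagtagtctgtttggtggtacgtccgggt
Macroh2a1, chr13:56134938-56135237, minus strand: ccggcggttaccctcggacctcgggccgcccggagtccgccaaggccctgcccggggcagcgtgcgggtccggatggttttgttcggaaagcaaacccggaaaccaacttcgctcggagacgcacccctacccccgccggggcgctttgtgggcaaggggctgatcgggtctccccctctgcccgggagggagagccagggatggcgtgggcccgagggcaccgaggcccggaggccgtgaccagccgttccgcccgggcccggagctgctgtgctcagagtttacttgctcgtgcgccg

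Most RUNX1 peaks at single coding genes were on the transcribed side of the TSS. Of the 6357 peaks at such genes, 70.4% (69.2 to 71.5%) were downstream. Peaks between nearby divergent TSSs of different genes lie upstream of each. By the rule they count as peaks at several genes and are not in this share. How far this raises the downstream share was not tested. The share was 66.1% among peaks with a fold of at least 8, 67.4% among peaks with a p-value under 1e-20, and 72.2% in genes with a single annotated TSS. Midpoints of downstream peaks had a median distance of 186 bp from the TSS (179 to 191 bp), with quartiles of 97 and 362 bp. Upstream peaks sat closer, with a median of 156 bp and quartiles of 69.8 and 293 bp. Counted in bins of 50 bp, downstream peaks were most frequent from 50 to 100 bp, with 687, and from 100 to 150 bp, with 670. The first 50 bp held 472, and 14 of these midpoints fell on the TSS base itself. On the upstream side the count was highest in the bin next to the TSS, with 345, and fell to 308 and 253 in the next bins.

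**Figure D1:**
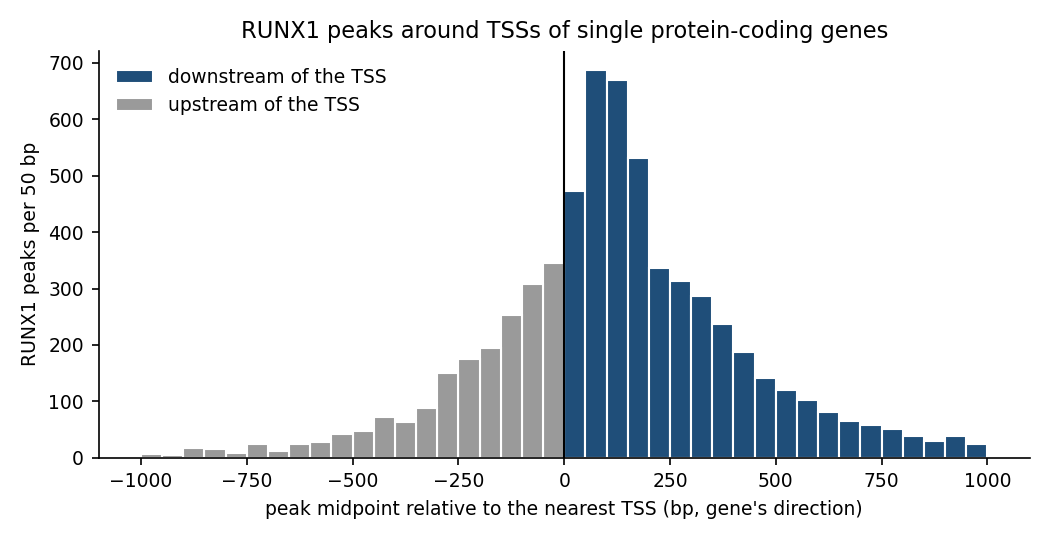
Number of RUNX1 peaks per 50 bp (vertical axis) by the position of the peak midpoint relative to the nearest TSS of a single protein-coding gene (horizontal axis, bp, positive in the direction of transcription). Blue bars are the 4473 downstream peaks, which are most frequent between 50 and 150 bp, and gray bars the 1884 upstream peaks, which decline from the TSS outward.

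By gene structure, the midpoint of 2767 downstream peaks (61.9%; 60.4 to 63.3%) was in exon 1 and that of 1605 (35.9%) in intron 1. A later exon held 71 and a later intron 29. Within exon 1, 1825 midpoints were in the 5′ UTR and 926 in coding sequence. The 300 bp of the peak covered the TSS in 1837 cases (41.1%), the end of exon 1 in 2350 (52.5%) and the translation start in 1649 of 4445 peaks with an annotated one (37.1%). Peaks in the 5′ UTR of exon 1 had a median fold of 6.48 (6.35 to 6.61), those in the coding part of exon 1 a median of 5.97 (5.74 to 6.17) and those in intron 1 a median of 6.54 (6.35 to 6.66). The interval of the coding part of exon 1 did not meet those of the 5′ UTR and of intron 1.

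Arpc2, a subunit of the ARP2/3 complex that nucleates branched actin, was among the genes with a midpoint on the TSS base, with a fold of 5.55. At the other limit of the window, the midpoint of the Wnt5b peak was at 1000 bp (fold 16.04), that of the muscle chaperone gene Hspb7 next inside it (fold 4.63) and that of the nucleosome remodeler gene Smarca5 at 994 bp (fold 6.33). The nearest peaks that missed the limit belonged to Shisa7 at 1006 bp (fold 8.79), Anp32e at 1010 bp (fold 9.87) and Brd7 at 1011 bp (fold 6.66). On the other side of the TSS, the nearest upstream peak was that of Zmym1 at 1 bp, with a fold of 7.14.

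Downstream peaks were of moderate strength. Their median fold was 6.35 (6.25 to 6.48), with quartiles of 5.02 and 8.56 and a range of 4.01 to 69.42. Upstream peaks had a median of 6.73 (6.58 to 6.90) and a maximum of 358.22. A fold of 8 or more was given for 1345 downstream peaks (30.1%) and 36.7% of upstream peaks, and a p-value under 1e-20 by 34.5% and 39.5%. For peaks over 1 kb from TSSs the median fold was 6.29 (6.17 to 6.38). Strength did not change steadily with the distance from the TSS. The median fold lay between 6.27 and 6.48 in all 6 distance classes of downstream peaks, the first within 100 bp of the TSS and the last from 700 to 1000 bp. Fold and p-value took few distinct values, and 93.3% of downstream peaks shared both with another downstream peak.

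**Figure D2:**
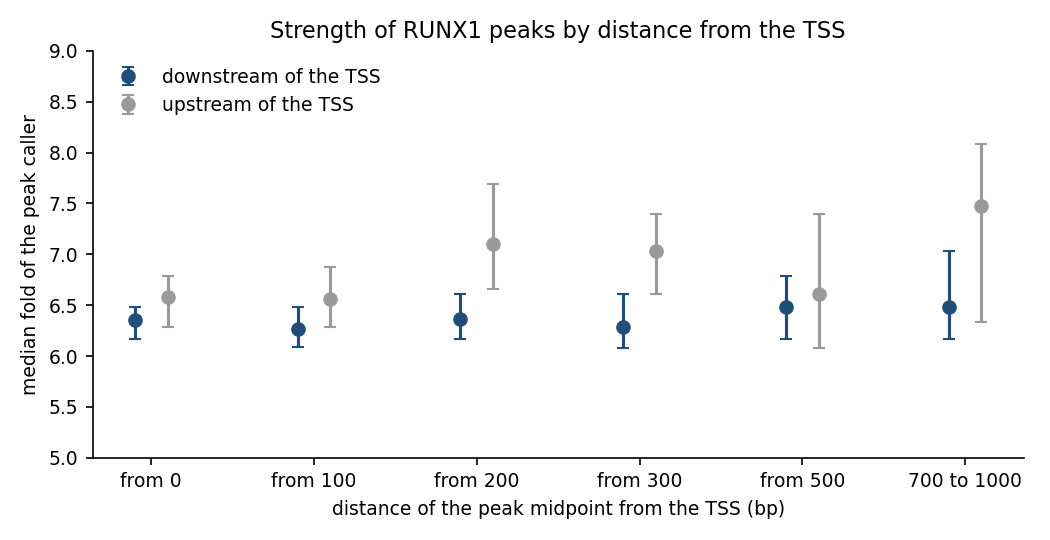
Median fold of the peak caller (vertical axis, which starts at 5) by distance of the peak midpoint from the TSS (horizontal axis, 6 classes labelled by their lower limit in bp), for downstream (blue) and upstream peaks (gray). Bars are 95% order-statistic intervals of the median, and the downstream medians stay between 6.27 and 6.48.

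The downstream peak of highest fold, 69.42, belonged to 4931414P19Rik (chr14:54605725-54606024, 33 bp into the gene), with a caller p-value of 4.57e-108, which comes from reads of the merged libraries and not from replicates. Macroh2a1 followed with 62.94. Eif4g3, a scaffold protein of translation initiation, had a fold of 58.93 at 18 bp and a caller p-value of 7.48e-259. Polr1d, a subunit shared by RNA polymerases I and III, and Cpeb1, an RNA-binding protein that controls translation in oocytes, both had a fold of 53.69 and a caller p-value of 1.15e-39. Both of these peaks were in intron 1, as was that of Szrd1, with a fold of 51.83.

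Further strong peaks were those of Zfp623 (47.52) and of the mitotic spindle gene Haus1 (41.65). The Haus1 peak was at a TSS 6086 bp downstream of the first annotated one. Among other genes named in this text, this distance was 94961 bp for Wnt5b, 78621 bp for Runx2 and 23272 bp for 1 Hlcs peak. It was 20934 bp for Cbfa2t3, 12292 bp for Lmo2, 8813 bp for Elf4 and 7733 bp for Dpy30. For Nr2f2, Lhx9, Arid1a, Hoxd11 and Egr2 it was 6153, 5135, 2784, 2765 and 1712 bp. Usp10, a deubiquitinating enzyme, had a fold of 38.51 at 860 bp in intron 1. Hnrnpab, an RNA-binding protein, had a fold of 37.95 with its midpoint in exon 2. Of the 12 peaks of highest fold, 5 were in intron 1, 5 covered the TSS and 4 held a RUNX core.

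The order by p-value was another one. A p-value under 1e-100, a limit set after the values were seen, was given for 27 downstream peaks, of which 19 held a core (70.4%; 49.8 to 86.2%) and 18 covered the TSS. The lowest was that of Slc35a1, the transporter of CMP-sialic acid into the Golgi, with a caller p-value of 3.31e-286 at a fold of 35.74, 29 bp from the TSS. Its peak held 2 cores, both on the sense strand. Slc25a4, which exchanges ADP and ATP across the inner mitochondrial membrane, had a caller p-value of 4.31e-231 at a fold of 32.4, and a core on the sense strand. Eif4g3 was in this group without a core. The peaks of Macroh2a1, Polr1d, Cpeb1 and Szrd1 were not in it, although their folds were higher than that of Slc35a1.

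A RUNX core was present in 1445 downstream peaks (32.3%; 30.9 to 33.7%). The share was 36.6% (690 of 1884) in upstream peaks and 57.5% in peaks over 1 kb from TSSs. Windows of the same length moved by 1 kb from the downstream peaks held a core in 21.9% (upstream) and 23.8% (downstream) of cases. The moved windows were poorer in G and C, with medians of 45.7% and 45.3%. Downstream peaks were rich in G and C, with a median of 68.7% against 54.7% in 300 bp windows at TSSs of coding genes without a peak within 1 kb. Each of these windows began at the TSS and ran downstream, so it held no bases upstream of the TSS. The 41.1% of downstream peaks that covered the TSS could hold such bases. Of the 12315 TSS windows without a peak, 22.3% held a core. Of the 1501 among them with a GC content between the quartiles of the downstream peaks, 19.2% (288) did. Shuffled cores were searched in the same way, as GTGTTG or GTGTCG and as TGTGTG or TGCGTG. They were present in 16.5% and 24.2% of downstream peaks and in 16.7% and 25.4% of the TSS windows of similar GC content.

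The form TGCGGT was present in 22.4% of downstream peaks and in 12% of the TSS windows of similar GC content. For TGTGGT the shares were 12.3% and 8.26%. In the windows moved by 1 kb, TGTGGT was more frequent than in downstream peaks, with 18.6% (upstream) and 20.2% (downstream). There TGCGGT was less frequent, with 4.02% and 4.49%. In all 12315 TSS windows without a peak, TGTGGT was present in 16.5% and TGCGGT in 6.63%. In peaks over 1 kb from TSSs the order of the forms was also the other way than in downstream peaks, with TGTGGT in 38.8% and TGCGGT in 24.6%. These peaks had a median GC content of 56%, against 68.7% in downstream peaks. How far GC content accounts for the order of the forms was not tested. The base after the core was T in 23.1% of cores of downstream peaks, in 29.3% of those of upstream peaks and in 46.9% of those far from TSSs. In the sequences shown above, both cores of Runx1 and the cores in capitals of Zfpm2, Lhx9, Acvr2b, Egr2, Tead2, Slc35a1 and Psmd6 are followed by this T on their own strand.

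The core was more frequent in stronger downstream peaks. By quartile of fold, 27.6%, 25.9%, 32.8% and 43.0% of the peaks held a core. The intervals of the highest quartile (40.1 to 46.0%) and the others did not overlap. In reverse, the median fold was 6.15 for the 3028 peaks without a core, 6.84 for 1225 peaks with 1 core, 7.96 for 201 peaks with 2 cores and 8.08 (5.55 to 10.49) for 19 peaks with 3 or 4. By distance, the share was 34.5% in the first 100 bp, between 29.1% and 31.9% in the classes from 100 to 700 bp, and 42.3% (36.0 to 48.8%) in the 241 peaks at 700 to 1000 bp.

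**Figure D3:**
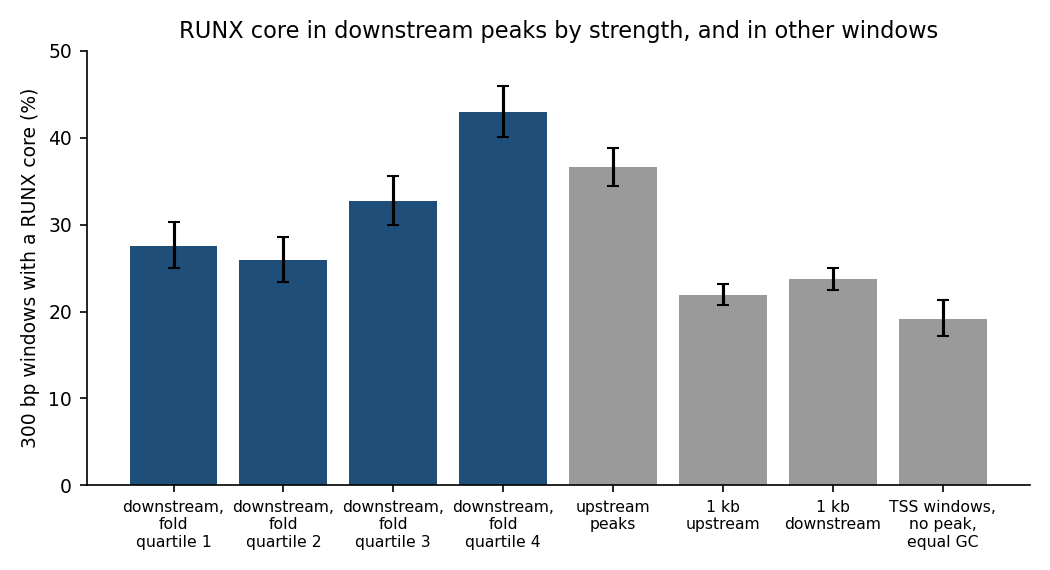
Share of 300 bp windows with a RUNX core (vertical axis, percent) in downstream peaks by quartile of fold (blue), from 27.6% in the lowest to 43.0% in the highest, and in other windows (gray). Gray bars are upstream peaks, downstream peaks moved by 1 kb in either direction, and TSS windows without a peak whose GC content lies between the quartiles of the downstream peaks. The moved windows had a median GC content of 45.7% (upstream) and 45.3% (downstream), against 68.7% in downstream peaks. Error bars are 95% exact binomial intervals.

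Cores were more frequent near the middle of downstream peaks than near their ends. Within 50 bp of the midpoint there were 717 core centres, and 409 were in the outermost parts, over 100 bp from it, which have about the same total length (ratio 1.75). Shuffled cores numbered 875 and 823 in these parts (ratio 1.06). In upstream peaks the ratio for the core was 2.26. On the sense strand of the gene there were 1068 cores and on the antisense strand 617, which is 63.4% sense (61.0 to 65.7%). The shuffled cores were 69.1% and 67.6% sense in these peaks and the SP/KLF site 61.8%, while the NFY site was 43.3% sense (40.1 to 46.5%). Cores in TSS windows of similar GC content without a peak were 61.9% sense. The sense strand of downstream peaks was 36.0% G and 32.2% C. In upstream peaks, with 33.0% G and 32.5% C, 47.4% of cores (44.0 to 50.9%) were on the sense strand.

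**Figure D4:**
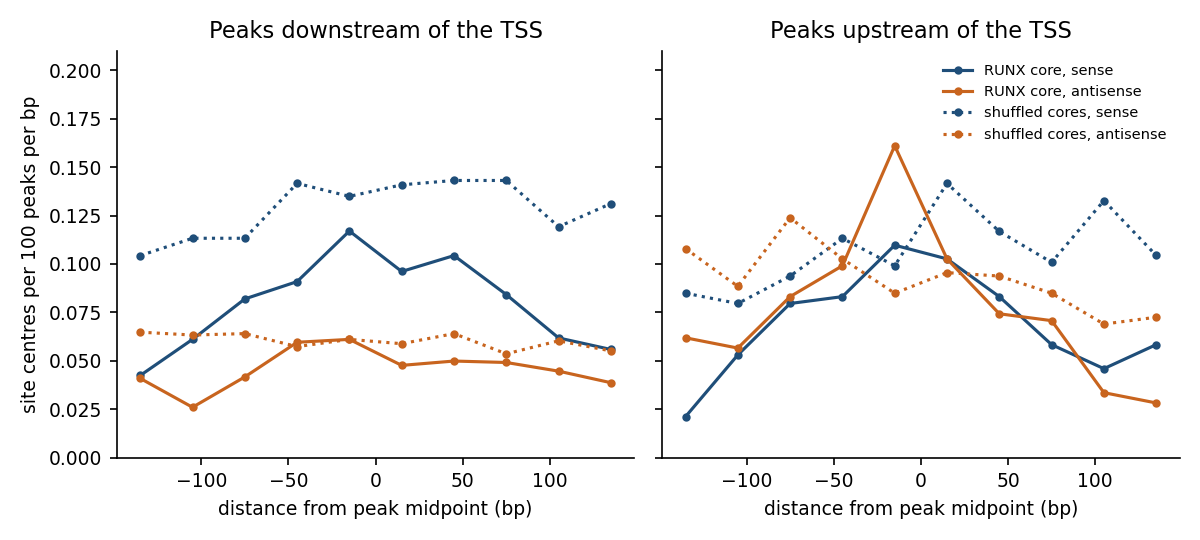
Centres of RUNX cores (solid) and shuffled cores (dotted) per 100 peaks and bp (vertical axis) by distance from the peak midpoint in the direction of the gene (horizontal axis, bp), on the sense (blue) and antisense strand (orange), in bins of 30 bp. Cores in downstream peaks (left) are more frequent on the sense strand, as shuffled cores are, while in upstream peaks (right) the totals of both strands are close, 393 sense and 436 antisense, and single bins differ. The ratio of sites within 50 bp of the midpoint to those over 100 bp from it was 1.75 for cores and 1.06 for shuffled cores in downstream peaks.

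A single downstream peak had 4 cores and 18 had 3, of which those of Arl6ip1, Trmt9b, Mpzl1, Gng4 and Smim8 had the highest folds. Galc, the lysosomal galactosylceramidase, had 4 cores in a peak centred on coding sequence of exon 1, at a fold of 9.6. Arl6ip1, a membrane protein of the endoplasmic reticulum, had 3 cores at a fold of 22.52 and a caller p-value of 1.74e-70. Gng4, a G protein gamma subunit, had 3 cores, all on the sense strand, in intron 1 at a fold of 10.64.

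Other short sites that occur in promoters were searched on both strands. At least 1 of 13 such sites was present in 80.6% of downstream peaks, mostly the SP/KLF site GGGCGG, with 64.3%, against 70.8% in upstream peaks and 61.9% in TSS windows of similar GC content. The NFY site CCAAT was present in 17.6% of downstream and 31.5% of upstream peaks (29.4% at the lower bound), the CRE site TGACGTCA in 1.56% and 3.56%, the NRF1 site GCATGCGC in 2.08% and 4.09%, and the E-box CACGTG in 8.18% and 11.8%. For sites bound by factors of the gonad, the shares in downstream peaks were below those far from TSSs. Peaks far from TSSs had a lower median GC content, 56% against 68.7%. How far GC content accounts for these differences was not tested. The forkhead site (TGTTTAC or TATTTAC), bound by FOXL2 and its relatives, was present in 1.68% of downstream peaks (1.32 to 2.10%), 3.66% of upstream peaks and 6.31% of those far from TSSs, and in 0.933% of TSS windows of similar GC content (0.511 to 1.56%). For the GATA site (AGATAA or TGATAA) the shares were 3.17%, 6.79% and 20.9%, with 2.66% in those windows. For the NR5A site (CAAGGTCA or CAAGGCCA), bound by SF1, they were 2.64%, 2.87% and 9.90%, with 2.80% in those windows. The windows moved by 1 kb from the downstream peaks held forkhead and GATA sites more often than peaks far from TSSs did. Upstream and downstream, the forkhead site was in 8.92% and 9.32% of them and the GATA site in 23.5% and 26.2%. The NR5A site was in 5.77% and 4.72% of them, less often than in peaks far from TSSs. The CTCF consensus was present in 0.402% of downstream and 1.01% of upstream peaks.

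The YY1 site AAGATGGC was present in 4.45% of downstream peaks (3.86 to 5.09%), 3.18% of upstream peaks and 3.40% of TSS windows of similar GC content. Of its 203 occurrences 168 (82.8%) were on the sense strand, at a median of 65 bp from the TSS, and 92 of these were in the first 100 bp. In the TSS windows of similar GC content without a peak 84.3% were sense as well. The downstream peaks of Kdm5c, Ctnnb1, Hipk2 and Mrps18a held this site. The ETS site CCGGAAGT was present in 5.03% of downstream peaks, 6.37% of upstream peaks and 2.53% of TSS windows of similar GC content. In downstream peaks it lay at a median of 9 bp (sense) and 4.5 bp (antisense) from the TSS. The lower quartiles, -14.75 and -21.75 bp, were upstream of the TSS, where those windows hold no sequence. The ETS shares of peaks and windows are therefore not for like positions. Its share fell with distance, from 11.3% (9.54 to 13.3%) of peaks in the first 100 bp to 5.24% in the next 100 bp and 1.08% from 500 to 700 bp.

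A downstream peak was found at 4363 genes, of which 4254 had 1, 108 had 2 and Hlcs, which codes for the enzyme that attaches biotin to carboxylases, had 3. Neighboring downstream peaks of the same gene were at least 443 bp apart. Of 110 such pairs, 76 were within 1 kb of each other. The folds of the Hlcs peaks were 5.55, 4.32 and 4.06. Hoxd11, a homeobox gene of the limb and urogenital tract, had a fold of 7.4 at 39 bp and of 34.25 at 643 bp. Scaf11, a splicing-associated factor, had 25.3 at 88 bp and 6.88 at 587 bp, and Zmynd11, a reader of histone methylation, had 24.07 and 4.98 at separate TSSs.

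Of the 4363 genes, 317 (7.27%) also had an upstream peak, and these were 17.1% of the 1856 genes with an upstream peak. The downstream peak was the stronger in 171 of them and the upstream peak in 145. Bmpr1a, a type I receptor for BMPs, had a fold of 11.11 downstream and 16.04 upstream. Jun, a subunit of AP-1, had 8.52 downstream and 12.03 upstream. At Map3k1 the values were 9.87 and 8.79, and at Rnf2 18.51 and 4.54.

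Of 18233 eligible coding genes, which have a TSS with no other gene's TSS within 1 kb, 4333 held a downstream peak, which is 23.8%. The share varied between chromosomes, from 12.2% on X and 15.9% on chromosome 7 to 29.7% on chromosome 12. Genes with a downstream peak had a longer first intron than the 12315 eligible genes without a peak within 1 kb, with medians of 5543 and 2468.5 bp. A single exon was found in 120 of the 4363 genes with a downstream peak and in 1895 of the 12315 without a peak. Several annotated TSSs were found in 23.4% and 15.1% of these genes. The 1102 eligible olfactory receptor genes, whose known role is in the nose, held 0 downstream peaks, which allows a share of up to 0.334% by the exact interval. They had no peak of any kind within 1 kb of a TSS and so are part of the 12315 genes above. They are also in the shares by chromosome. Neither these shares nor the comparison of introns, exons and TSSs was repeated without them. Without these receptor genes the share of eligible genes with a downstream peak was 25.3%.

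Among 27 eligible genes of the ovary and of pre-granulosa cells, 9 (33.3%; 16.5 to 54.0%) held a downstream peak, an interval that included the 23.8% of all eligible genes. Of these 9 peaks 4 had a core (44.4%), beside 32.3% of all downstream peaks. Fst had the strongest. It codes for follistatin, which binds and blocks activin, and its peak was at chr13:114458677-114458976, in the 5′ UTR of exon 1 at 124 bp from the TSS. Its fold was 35.17 and its caller p-value 1.26e-44, and it held the core shown above. Bmper, a secreted BMP-binding protein, followed with a fold of 17.28, and Ctnnb1, which codes for the WNT effector beta-catenin, with 16.66 at 37 bp. Runx1 itself had a fold of 11.11 and a caller p-value of 5.32e-41. The gene has 2 annotated TSSs that are 128745 bp apart, and the peak lay 494 bp from the one further downstream, in the 5′ UTR of that transcript, with 2 cores. Lgr5, a receptor for R-spondins, had 9.26 and the ligand gene Bmp2 had 7.59. The folds of Inhbb (4.68), the activin beta B subunit, of Kitl (4.11), the ligand for KIT on germ cells, and of the homeobox gene Msx1 (4.09) were in the lowest quartile. Wnt4 and Rspo1, which are required for ovary differentiation, were eligible and had no peak of any kind within 1 kb of a TSS. Foxl2 was not eligible, because another gene's TSS lies within 1 kb, and had a peak within 1 kb that is not counted here.

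In a list of genes tied to gonad formation, 9 of 21 eligible genes held downstream peaks (42.9%; 21.8 to 66%), an interval that also included 23.8%. Numb, an inhibitor of Notch signaling, had the highest fold, 17.28, in intron 1. Zfpm2, the GATA4 cofactor also called FOG2, had a fold of 13.88 with 2 cores, at 460 and 469 bp from the TSS. The kinase Map3k1 had 9.87, the Polycomb gene Cbx2 had 7.69 and Podxl, a sialomucin of the cell surface, had 7.4. Six4 and the insulin receptor gene Insr both had 4.71. Lhx9 (4.17) and Nr2f2 (4.1), which encodes COUP-TFII of interstitial cells, were close to the lowest fold in the list, and both held a core. Nr5a1, which encodes SF1, was eligible and had no peak within 1 kb, Gata4 was eligible and had a peak within 1 kb that was not a downstream peak, and Wt1 was not eligible.

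Markers of other cells of the gonad had shares of 15.8% to 21.4%, with intervals that all included 23.8% as well. Of 19 eligible genes of Sertoli cells and the testis, 3 (15.8%; 3.38 to 39.6%) held a downstream peak: Dmrt1, which maintains Sertoli cell identity after birth, with a fold of 9.02 in coding sequence of exon 1, Clu with 8.33 and Fgfr2, the receptor for FGF9, with 5.89. Sox9 and Amh were eligible and had no peak within 1 kb. Of 11 genes of steroidogenic cells, 2 did, the electron carrier gene Fdx1 with 12.69 and the lipoprotein receptor gene Scarb1 with 4.78. Of 20 germ cell genes, 4 did. Kit, the receptor for KITL, had 17.12 in intron 1, the synaptonemal complex gene Sycp1 had 6.35, Dnd1 had 5.82 and Spo11, which makes the meiotic double-strand breaks, had 4.32. Of 24 genes of blood cells and macrophages, 5 did, Kit among them. The blood regulators Tal1 (8.33), Erg (5.14), Fli1 (5) and Lmo2 (5) made up the others. Of 14 endothelial genes, 3 did, namely Sox18 (7.54) and the VEGF receptor genes Kdr (4.63) and Flt1 (4.56).

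The RUNX family, Cbfb and known partner proteins held downstream peaks in 13 of 25 eligible genes (52%; 31.3 to 72.2%), beside 23.8% of all eligible genes. Cbfb had a fold of 15.92 and a caller p-value of 4.25e-36, in intron 1 at 405 bp. The Polycomb ubiquitin ligase gene Rnf2 had 18.51, the kinase gene Hipk2 had 12.96, the corepressor gene Tle3 had 10 and the acetyltransferase genes Kat6b and Kat6a had 9.63 and 5.05. Cbfa2t2 (7.96), Cbfa2t3 (7.17), Bmi1 (6.94), the remodeler ATPase gene Smarca4 (6.61), Sin3b (5.97) and Runx2 (5.55) completed the list. Only the peaks of Runx1 and Kat6a in it had a core, 2 of 13 (15.4%), beside 32.3% of all downstream peaks.

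Signaling pathways had shares between 45.5% and 47.8%, beside 23.8% of all eligible genes and 25.3% without olfactory receptors. The intervals were 26.8 to 69.4% for Hippo, 28.1 to 63.6% for WNT and 29.5 to 63.1% for TGF-beta, BMP and activin signaling. In the Hippo pathway 11 of 23 eligible genes held a downstream peak, led by the upstream kinase gene Taok1 (27.77) and the kinase gene Lats2 (21.6), with the YAP-binding Amotl2 at 12.65 and the transcription factor gene Tead2 at 9.02. In a list of WNT receptors, transducers and regulators, which holds no WNT ligands, 15 of 33 did, with Ctnnb1, the feedback inhibitor gene Axin2 (11.11), the tankyrase gene Tnks2 (9.87) and Lgr5 the strongest. In TGF-beta, BMP and activin signaling 17 of 37 did, with Fst, the activin receptor gene Acvr2b (11.64, with a core), Bmpr1a and the signal transducer gene Smad3 (10.18). Among cell cycle regulators the count was 14 of 34 (41.2%; 24.6 to 59.3%), an interval that included the 25.3% without olfactory receptors. The strongest were the pocket protein gene Rbl2 at 21.6, the cyclin gene Ccnd3 at 14.07, Mdm2, the ubiquitin ligase of p53, at 13.75 and E2f5 at 12.17.

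Among transcription factors, 7 of 27 AP-1 and immediate early genes (25.9%) held a downstream peak, close to the share of all eligible genes. Egr2, a zinc finger factor, was the strongest with 20.98 and 2 cores, and its peak had a GC content of 42%. Ier2 (15.55), Fos (13.58) and Jun (8.52) followed. Of 21 ETS factors, 8 did (38.1%; 18.1 to 61.6%), an interval that included the 23.8% of all eligible genes. The strongest were Elk1 at 10.64, Etv3 at 8.56, Elf4 at 7.93 and Etv5 at 7.67. Zinc finger genes of the Zfp and Zbtb series held one in 109 of 364 cases (29.9%; 25.3 to 34.9%), with Zfp623, Zfp26 (31.47), Zfp2 and Zfp677 (21.29) the strongest.

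Among chromatin regulators, genes of histone methylation and Polycomb held downstream peaks in 17 of 36 cases (47.2%; 30.4 to 64.5%). Eed, the subunit of PRC2 that reads trimethylated H3K27, had a fold of 27.15 in coding sequence of exon 1. The X-linked H3K4 demethylase gene Kdm5c had 17.59 with its midpoint on the TSS, and Dpy30, a subunit of H3K4 methyltransferases, had 12.65 with 2 cores. In the SWI/SNF remodeler the count was 7 of 18 (38.9%), with an interval of 17.3 to 64.3% that included the 23.8% of all eligible genes, among them the genes for the DNA-binding subunits Arid1a (22.83), Arid2 (20.36) and Arid1b (7.61).

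Genes of the cytoskeleton and of cell adhesion had the highest share of the 25 lists, 23 of 37 (62.2%; 44.8 to 77.5%). Of their 25 peaks 11 had a core (44%), beside 32.3% of all downstream peaks. Core shares are given for some lists only and rest on few peaks. They have no interval here, and differences from 32.3% were not tested. Itgb1, the integrin beta 1 subunit, had a fold of 19.44 and a caller p-value of 3.62e-94, the non-muscle myosin gene Myh9 had 15.5 with 2 cores, the fibronectin receptor gene Itga5 had 14.81 and the focal adhesion gene Pxn had 13.33. Genes of basic cell functions were between 30.6% and 50%, beside 23.8% of all eligible genes. Cytosolic ribosomal proteins held one in 28 of 56 cases, with Rps23 at 27.77, and mitochondrial ribosomal proteins in 24 of 48, with Mrps18a at 12.73. Of the peaks of cytosolic ribosomal protein genes, 5 of 28 had a core (17.9%).

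Proteasome subunits held one in 15 of 32 cases (46.9%), led by Psmd7 (10.49, with 2 cores) and Psmd6 (10.05), and 9 of the 15 peaks had a core (60%), beside 32.3% of all downstream peaks. For splicing factors the count was 16 of 38, with Hnrnpab at 37.95 and Srsf6 at 18.14. For the respiratory chain it was 15 of 49 (30.6%; 18.3 to 45.4%), an interval that included the 23.8% of all eligible genes, with Cox5a at 9.53. For ubiquitin ligases and their E2 enzymes it was 58 of 142 (40.8%; 32.7 to 49.4%), with Ube2m, the E2 for NEDD8, at 23.49 and a caller p-value of 3.92e-196. The files used here hold no expression values, and the share of each list that is active in the ovary was not examined.

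**Figure D5:**
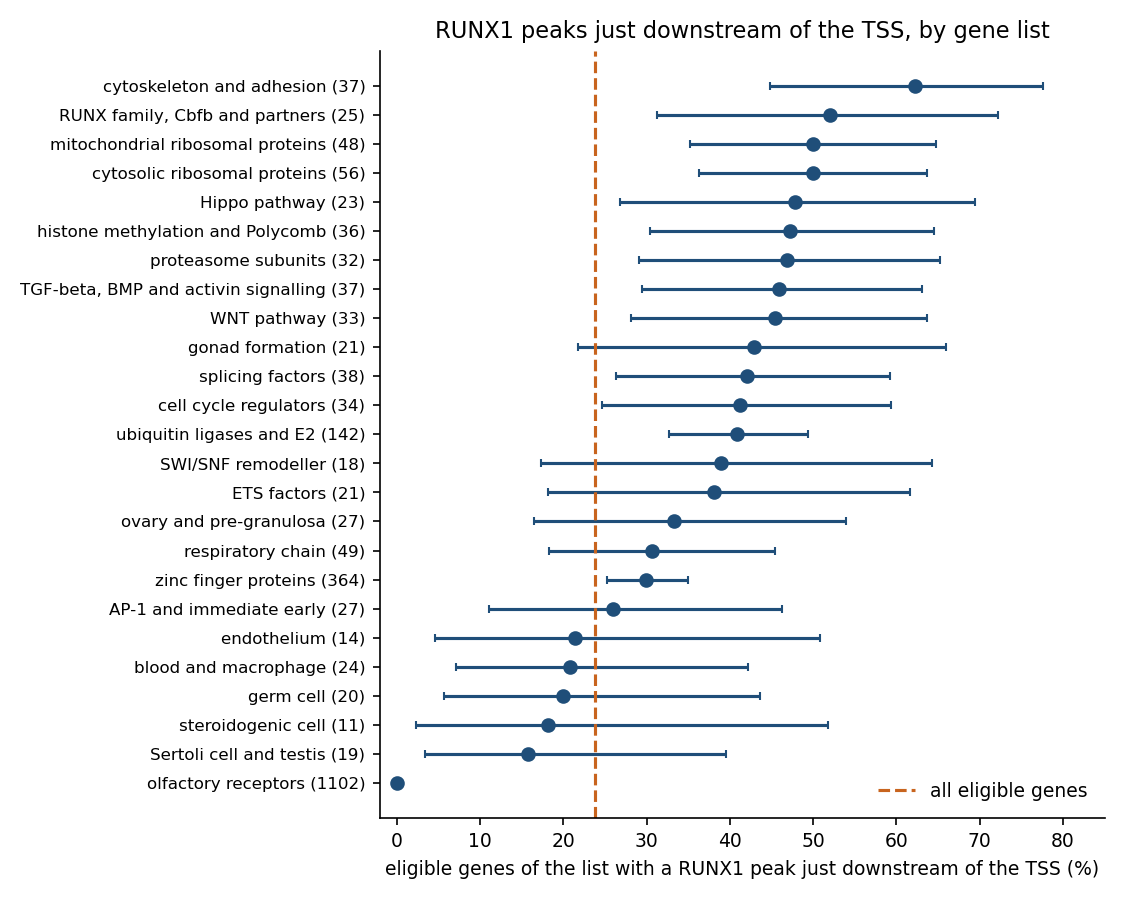
Share of the eligible genes of each list that held a downstream peak (horizontal axis, percent), with the number of eligible genes in parentheses. Points are shares, bars 95% exact binomial intervals over genes and the dashed line the 23.8% of all eligible genes. Cytoskeleton and adhesion is highest with 62.2%, markers of other gonadal cells are near the line, and olfactory receptors are at 0.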

How the data were processed

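RUNX1 ChIP-seq was measured in 2 samples of pooled E14.5 CD1 ovaries with 2 input samples. The deposited list gives 10494 peaks with a fold (a ratio over background) and a p-value per peak. Per the labels and the study's methods, the authors mapped single-end reads uniquely to mm10 with Bowtie 1.2, removed duplicates with Picard 1.110, merged the replicates, called peaks with HOMER 4.9, reset them to 300 bp and kept those with a set enrichment against the input and the surrounding signal. In their processing notes the submitters also name bedtools 2.24.0. No read counts are in the list, so the depth behind a peak is unknown here.

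From the list, 4 peaks on other sequences were left out. Midpoints were compared with 45756 curated RefSeq transcripts of 26180 genes (GRCm38.p6 annotation), with coordinates counted from 1. A midpoint was placed by the transcript of longest span that starts at the nearest TSS. Analyses used Python 3.11.15, numpy 2.4.6, scipy 1.17.1 and pysam 0.24.0, and the code was tested on simulated data. Medians, shares and 95% intervals describe the list, and no test was made, since replicates were merged and peaks and genes are not replicates.

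The peaks, gene lists and sites were chosen with earlier results of these data known. Genes named were the 12 peaks of highest fold, of which 2 are not reported here, the 4 highest in exon 1 and in intron 1, every member of the ovary, gonad, testis, steroidogenic, germ cell, blood, endothelial and RUNX lists, the 4 strongest of each other list, the 4 genes with most peaks, the 6 peaks with most cores and those at the limits of the window. Slc35a1, Slc25a4, Rras2 and the genes said to hold no peak were named after their values were seen. The alternatives tried were higher limits on strength, a window of 500 bp, predicted transcripts, other rules for genes and exons, and other forms of the core.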

Additional observations from a re-analysis of the deposited data

How the results depend on the processing

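No paired analysis was possible because peaks were called on merged replicates, and for the same reason no replicate could be left out. Of 159 values recomputed, 125 stayed within their interval, or within 1.5 times for counts, among them every value under 1 peak per gene, under counting only protein-coding genes, under the shortest transcript and without peaks that cover the TSS. With a fold of at least 8 there were 1345 downstream peaks with a median fold of 10.37 and a GC content of 69.3%, of which 41.4% held a core and 83.9% another site, and 12 genes held several. With a p-value under 1e-20 there were 1542, with a median fold of 9.26, a distance of 168.5 bp, a GC content of 69.3%, 66.5% in exon 1, 44.4% over the TSS, 44.5% with a core, 82.6% with another site and 16 genes with several. A window of 500 bp gave a distance of 159 bp, 66.9% in exon 1, 46.8% over the TSS, 81.9% with another site and 36 genes with several. Predicted transcripts gave 166 bp, 66.3% in exon 1 and 45.7% over the TSS. Counting any base of the peak put 83.1% in exon 1. A core followed by T was in 8.43% of peaks, and 14.8% held a core in their central 100 bp. Over all lists, 420 of 2449 genes held a downstream peak and 748 any peak within 1 kb. The lower counts and higher median folds under the limits on strength, the shorter distance in the smaller window and the lower core shares under the stricter core and the central part follow from the construction of the alternative. For the other values the cause was not tested. Chosen after seeing the data were a midpoint 1 base lower, run for the number of peaks only, genes with 1 annotated TSS, neither of which moved a value beyond its interval, and the TSS windows of similar GC content. Without replicate values, a difference in fold between peaks of similar fold cannot be told from noise.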
